A study of Mus musculus with 32 samples.

Results

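The genes described here make cholesterol, sense it or move it: 28 members in all, named by gene symbol or older synonym, covering the synthesis pathway from acetyl-CoA to cholesterol, the SREBP control genes and the LXR and transport genes. Of these, 26 had at least 1 probe set annotated to a single gene, and Acat2 and Nr1h2 were not analysed here. A total of 25 members passed the filter on low values, out of 12509 genes that passed in all, and Abcg1, with means of 3.32 and 2.31 on its 2 probe sets, did not. The members held 56 probe sets, of which 45 passed, out of 27083 tested.

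RNA came from early passage primary mouse embryonic fibroblasts, cells grown from embryos that have been in culture only briefly. Cells were wild type or Oct-1 mutant, and each genotype was left unirradiated or irradiated, which gives 4 groups of 4 replicates; Oct-1 is a transcription factor with a POU DNA-binding domain. Each of the 16 RNA extracts was run on 2 Affymetrix expression array types, called array A and array B, which makes 32 samples. The sources used here do not give the allele, the radiation dose, the time of sampling or whether replicates were separate embryos or cultures, so p-values measure only the spread between these samples. Genotype differences cannot be told apart here from other differences between the wild type and mutant cultures.

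Cholesterol is made from acetyl-CoA through mevalonate, isoprenoids, squalene and lanosterol. The SREBP transcription factors, SREBP2 above all, switch on most genes of this route: when sterols are scarce, SCAP carries the SREBP precursors from the endoplasmic reticulum to the Golgi for cleavage, and INSIG proteins hold them back when sterols are plentiful. LXR receptors, which respond to oxidised sterols, raise genes of cholesterol export such as Abca1.

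Irradiation lowered 7 of the 25 members and raised 1 when averaged over both genotypes. Averaged over both irradiation states, 10 members were higher and 0 lower in Oct-1 mutant than in wild type cells. Over all probe sets tested, 3.01% were called lower and 4.5% higher with irradiation, and 2.48% were called lower and 3.77% higher in the mutant. Called means an adjusted p under 0.05 in a limma fit across all probe sets of an array type, and each gene is represented by its brightest passing probe set on array A, or on array B where array A held none. Counted by probe set, 13 of the 45 member probe sets were lower and 1 higher with irradiation, and 17 were higher and 0 lower in the mutant. Fdft1, Sqle, Lss and Cyp51, which encode 4 successive enzymes from squalene synthesis to the demethylation of lanosterol, were called in both directions, lower with irradiation and higher in the mutant. They make up 16% of the member genes tested, whereas 0.303% of all probe sets were called in those opposed directions. The members were chosen with earlier results of these data known. Shares of members set beside all probe sets or all genes therefore describe the list and do not test it. In whole cultures, fewer cells of a type and less RNA per cell cannot be told apart.

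The typical member moved little. The median log2 difference over the 25 members was -0.12 with irradiation, beside 0.01 over all genes, and 0.23 for the mutant against wild type, beside 0.02 over all genes. For irradiation 17 of 25 differences were below 0, and for genotype 23 of 25 were above 0. The mean of 14 members was lowest in irradiated wild type cells and highest in unirradiated mutant cells, which is 56% of the members and 11.4% of all genes tested. A further fit took the replicate number as a block, which matches same-numbered extracts across groups. In that fit 10 members were lower and 1 higher with irradiation, beside 6.24% and 8.68% of all probe sets. In the mutant 16 were then higher and 0 lower, beside 7.21% and 6.7%, and 8 were called in the opposed directions, beside 0.75%.

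Promoter sequence is shown for the 2 members with a rarer motif, and for the other members called in an averaged comparison that had a single start-site window and a CCAAT box in its last 120 bases before the start. RefSeq start-site windows of build GRCm38.p6, from 250 bases before to 50 bases after the start, were held for 22 of the 28 members in 30 windows; Fdps, Fdft1, Sqle, Stard4, Npc1 and Abcg1 had none here. On both strands, 3 motifs were searched, and none of their matches overlapped in the member windows: the sterol regulatory element TCACNCCAC, the element SREBPs bind, the CCAAT box bound by NF-Y, and ATGCAAAT, the octamer to which Oct-1 binds. The sterol regulatory element was found in 1 member, Hmgcs1, against 1.44% of all genes with a window. The octamer was found in 1 member, Srebf2, against 1.97% of all genes. The CCAAT box was present in 18 of 22 members, or 81.8%, against 41.1% of all genes. Counted by window, which allows for genes with several, it was in 63.3% of member windows against 37.4% of all windows. A match of letters is a description and not a measured binding site.

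Capitals mark the motif in each sequence, written from upstream to downstream on the strand of the gene. The Hmgcs1 stretch, with the sterol regulatory element at -137 from the start, is chr13:119690184-119690252 on the plus strand, and the Srebf2 stretch, with the octamer at -196 from the start, is chr15:82147043-82147110 on the plus strand. The next 6 sequences are the 120 bases before the start of Cyp51 (chr5:4104698-4104817, minus strand), Lss (chr10:76531485-76531604, plus strand), Mvd (chr8:122443423-122443542, minus strand), Idi1 (chr13:8885486-8885605, plus strand), Msmo1 (chr8:64733579-64733698, minus strand) and Ebp (chrX:8193513-8193632, minus strand), with CCAAT or its reverse complement in capitals.
Hmgcs1: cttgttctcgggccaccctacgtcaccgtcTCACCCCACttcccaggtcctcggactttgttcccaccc
Srebf2: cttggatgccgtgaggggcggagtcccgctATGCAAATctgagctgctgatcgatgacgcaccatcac
Cyp51: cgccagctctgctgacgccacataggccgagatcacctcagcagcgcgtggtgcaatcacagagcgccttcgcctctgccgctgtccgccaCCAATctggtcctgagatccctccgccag
Lss: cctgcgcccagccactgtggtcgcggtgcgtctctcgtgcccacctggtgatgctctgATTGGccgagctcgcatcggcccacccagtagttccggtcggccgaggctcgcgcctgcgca
Mvd: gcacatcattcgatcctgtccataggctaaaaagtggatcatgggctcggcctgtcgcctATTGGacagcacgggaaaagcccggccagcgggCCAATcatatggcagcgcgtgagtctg
Idi1: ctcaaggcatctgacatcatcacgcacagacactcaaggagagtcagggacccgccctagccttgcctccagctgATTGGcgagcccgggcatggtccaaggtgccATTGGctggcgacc
Msmo1: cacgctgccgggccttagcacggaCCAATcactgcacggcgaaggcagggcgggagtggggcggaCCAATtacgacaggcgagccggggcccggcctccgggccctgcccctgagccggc
Ebp: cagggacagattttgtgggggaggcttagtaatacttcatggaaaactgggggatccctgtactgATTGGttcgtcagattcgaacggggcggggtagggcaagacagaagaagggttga

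The arrays carried the marks of the labelled cells and treatment. All 13 fibroblast markers on array A passed the filter, while 0 of 4 hepatocyte, 0 of 4 endothelial and 0 of 4 muscle markers did. Of the other lists, 3 of 8 macrophage and blood, 2 of 6 adipocyte, 2 of 6 epithelial and 4 of 5 neural markers passed on array A. Epcam, an epithelial marker, passed on array B with a mean of 9.44 and was not called in either averaged comparison. All 6 p53 target genes rose with irradiation, by 0.42 to 2.28, and 4 of 5 proliferation genes fell, with differences over the 5 from -1.71 to -0.17. The fibroblast list moved with the groups too: its mean level per extract ran from 11.33 to 11.43 in unirradiated wild type, 11.13 to 11.26 in irradiated wild type, 11.70 to 12.05 in unirradiated mutant and 11.55 to 11.88 in irradiated mutant cells. Of those 13 markers, Dcn (2.01), Lum (1.46), Pdgfra (0.49) and Thy1 (0.49) rose in the mutant, and Pdgfra, Pdgfrb, Prrx1 and Twist1 fell with irradiation, by 0.72, 0.56, 0.42 and 0.49. Among markers of other cell types, the adipocyte gene Fabp4 fell in the mutant by 0.52 (limma adjusted p = 0.00118), the epithelial Krt18 rose in the mutant by 0.46 (adjusted p = 0.0165) and the adipocyte Pparg fell with irradiation by 0.44 (adjusted p = 0.0492). The part of these shifts, and of the proliferation genes, in the member differences was not tested.

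The mevalonate genes, which build the isoprenoid units, held 6 members with a value. With irradiation 1 of them was lower and 0 were higher (median -0.12), and in the mutant 3 were higher and 0 lower (median 0.29). Over all probe sets, 3.01% were called lower with irradiation and 3.77% higher in the mutant. Hmgcs1 encodes the cytosolic synthase that makes HMG-CoA, and its brightest probe set, 1433445_x_at, is of a class whose probes may also match other transcripts. In order of replicate number its log2 values were 12.88, 12.64, 12.50 and 12.45 in unirradiated and 12.03, 12.15, 12.01 and 12.22 in irradiated wild type cells. The mutant gave 13.27, 13.01, 12.74 and 12.50 without and 12.69, 12.63, 11.96 and 12.31 with irradiation. Every irradiated wild type extract lay below every unirradiated one, whereas the mutant groups overlapped.

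Hmgcs1 fell with irradiation by 0.50 on the log2 scale (SE 0.12, limma adjusted p = 0.0103), or 1.41-fold, the largest fall among the 25 members. All 4 Hmgcs1 probe sets on array A were called lower, with differences from -0.65 to -0.50, and the one on array B was at -0.13 (adjusted p = 0.689). In the mutant it was 0.28 higher (SE 0.12, adjusted p = 0.164), a difference called with the replicate block (adjusted p = 0.022). Another Hmgcs1 probe set was called higher in the mutant without the block (0.23, adjusted p = 0.012).

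Pmvk and Mvd follow in the pathway, encoding the kinase and the decarboxylase that turn phosphomevalonate into isopentenyl diphosphate. Pmvk read 7.65, 7.45, 7.52 and 7.60 in unirradiated wild type, 7.54, 7.78, 7.51 and 7.30 in irradiated wild type, 8.15, 8.23, 7.95 and 7.82 in unirradiated mutant and 7.93, 8.07, 7.80 and 7.54 in irradiated mutant cells. Genotypes were apart without irradiation and overlapped with it. Pmvk rose in the mutant by 0.39 (SE 0.09, limma adjusted p = 0.00947).

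Mvd read 7.66, 7.60, 7.69 and 7.92 in unirradiated wild type, 7.30, 7.35, 7.88 and 7.63 in irradiated wild type, 8.15, 8.19, 7.97 and 8.29 in unirradiated mutant and 7.75, 7.86, 8.12 and 7.96 in irradiated mutant cells. Here too the unirradiated genotypes were apart and the irradiated ones overlapped. It rose in the mutant by 0.41 (SE 0.09, adjusted p = 0.00755), and its second probe set by 0.29 (adjusted p = 0.0404). With irradiation Mvd differed by -0.20 (95% interval -0.39 to -0.01, adjusted p = 0.167).

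Idi1, the isomerase of isopentenyl diphosphate, gave results that depended on the probe set. The brighter one read 10.76, 10.76, 10.91 and 10.72 in unirradiated wild type, 10.79, 10.77, 10.70 and 10.54 in irradiated wild type, 11.14, 11.30, 11.06 and 10.98 in unirradiated mutant and 11.11, 11.02, 10.90 and 10.82 in irradiated mutant cells. On it the mutant was above wild type in both states with no overlap, by 0.30 on average (SE 0.06, adjusted p = 0.00376). The second Idi1 probe set showed -0.02 for genotype (adjusted p = 0.936) and fell with irradiation by 0.52 (adjusted p = 0.00712), where the brighter one showed -0.12 (adjusted p = 0.203). With probe sets averaged, the genotype call of Idi1 was lost (adjusted p = 0.294).

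Mevalonate kinase, encoded by Mvk, and farnesyl diphosphate synthase, encoded by Fdps, passed in neither averaged comparison. Mvk differed by 0.06 with irradiation (adjusted p = 0.776) and by 0.20 in the mutant (adjusted p = 0.206), although its dimmer probe set was called higher in the mutant (0.30, adjusted p = 0.0452). Fdps differed by 0.00 with irradiation (95% interval -0.20 to 0.19). In the mutant it was 0.23 higher (adjusted p = 0.137), which the replicate block brought to an adjusted p of 0.00467.

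The genes from squalene to cholesterol held the 4 members called in the opposed directions. Of 11 members, 5 were lower and 0 higher with irradiation (median -0.21), and 6 were higher and 0 lower in the mutant (median 0.31). The shares of all probe sets were 3.01% lower with irradiation and 3.77% higher in the mutant. With irradiation 3 of the 11 differences were above 0. Sqle encodes squalene epoxidase, which adds the first oxygen to squalene, and was read by probe set 1415993_at. Its values were 9.98, 9.96, 9.98 and 10.00 in unirradiated wild type, 9.73, 9.70, 9.58 and 9.58 in irradiated wild type, 10.30, 10.34, 10.25 and 10.36 in unirradiated mutant and 9.97, 9.89, 9.93 and 9.90 in irradiated mutant cells. Unirradiated mutant extracts were the highest and irradiated wild type extracts the lowest without any overlap, and the other two groups lay together between them.

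Sqle fell with irradiation by 0.36 (SE 0.04, limma adjusted p = 1.02e-05), 1.29-fold, and rose in the mutant by 0.31 (SE 0.04, adjusted p = 6.44e-05), 1.24-fold. It was the 1 member called in each averaged comparison and in all 4 comparisons within a genotype or an irradiation state. Within replicates 1 and 2 the irradiation and genotype differences were -0.32 and 0.29, and within replicates 3 and 4 they were -0.40 and 0.33.

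Cyp51, the lanosterol demethylase read by 1450646_at, was likewise highest in unirradiated mutant and lowest in irradiated wild type cells. It read 10.49, 10.35, 10.35 and 10.38 in unirradiated wild type, 10.10, 10.26, 10.03 and 9.89 in irradiated wild type, 10.90, 10.77, 10.76 and 10.57 in unirradiated mutant and 10.67, 10.62, 10.44 and 10.40 in irradiated mutant cells. Mutant and wild type did not overlap in either state, and irradiated wild type cells were below all others. Cyp51 fell with irradiation by 0.27 (SE 0.06, adjusted p = 0.0113) and rose in the mutant by 0.41 (SE 0.06, adjusted p = 0.000506). Its second probe set gave -0.51 (adjusted p = 0.000244) and 0.44 (adjusted p = 0.00107).

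Fdft1 encodes squalene synthase, the first enzyme committed to sterols, and was read by 1448130_at. The values were 10.09, 10.15, 10.13 and 10.24 in unirradiated wild type, 9.74, 9.91, 10.12 and 10.00 in irradiated wild type, 10.40, 10.62, 10.35 and 10.45 in unirradiated mutant and 10.30, 10.36, 10.18 and 10.26 in irradiated mutant cells. The genotypes were apart in both states, while irradiated and unirradiated extracts of a genotype overlapped. Fdft1 rose in the mutant by 0.32 (SE 0.06, adjusted p = 0.00184) and fell with irradiation by 0.19 (SE 0.06, adjusted p = 0.0405). The irradiation call was lost in 11 of the 16 fits that dropped 1 extract (adjusted p up to 0.0816), and the second probe set gave -0.16 (adjusted p = 0.0437) and 0.33 (adjusted p = 0.000426).

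Lss, which cyclises oxidosqualene to lanosterol and was read by 1420013_s_at, was the least certain of the 4. Its values were 8.98, 9.05, 8.90 and 9.13 in unirradiated wild type, 8.82, 8.85, 8.90 and 8.76 in irradiated wild type, 9.17, 9.43, 9.17 and 9.34 in unirradiated mutant and 8.96, 9.30, 8.90 and 8.99 in irradiated mutant cells. The unirradiated genotypes were apart, and the lowest irradiated mutant extract touched the highest irradiated wild type extract at 8.90. Lss fell with irradiation by 0.21 (SE 0.06, adjusted p = 0.0428) and rose in the mutant by 0.23 (SE 0.06, adjusted p = 0.0298). Leaving out 1 extract lost the first call in 12 of 16 cases (adjusted p up to 0.0879) and the second in 6 (up to 0.0631), and the second probe set, at -0.25 and 0.36, was not called (adjusted p = 0.358 and 0.176).

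**Figure D1:**
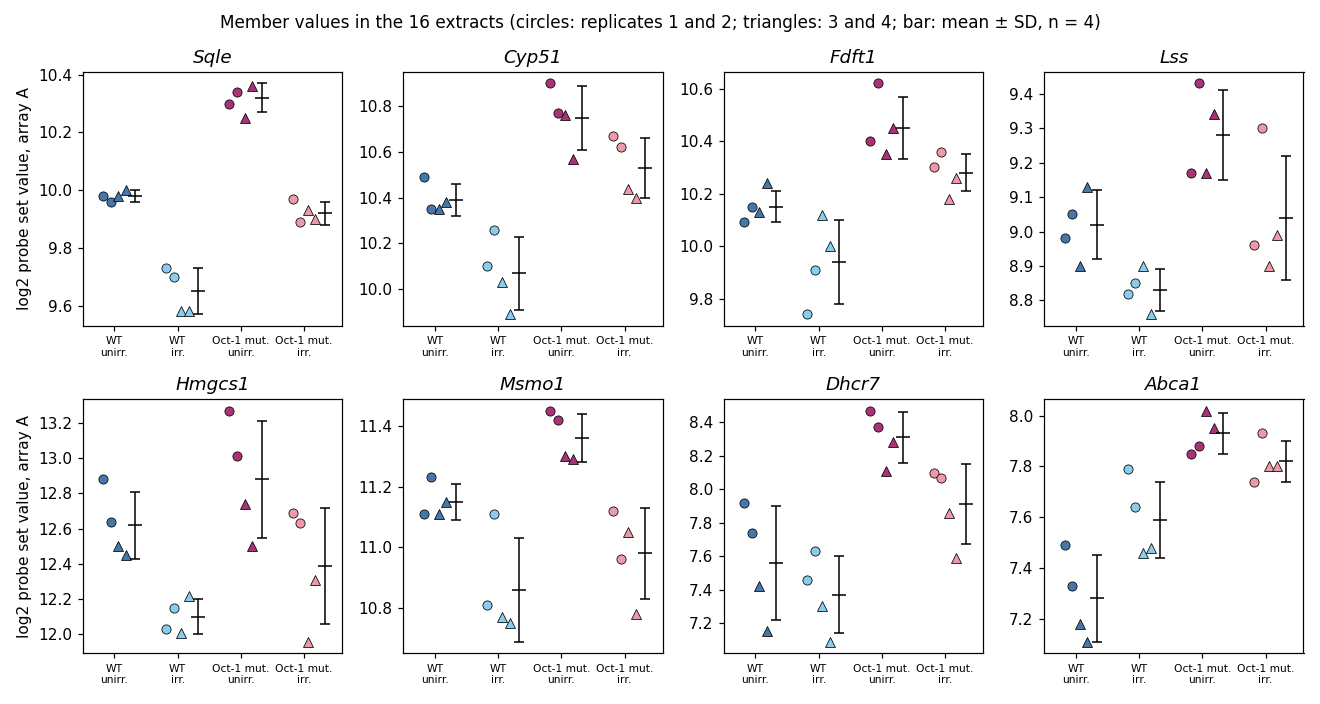
Log2 probe set values of 8 member genes on array A in the 16 extracts, by group; circles are replicates 1 and 2, triangles replicates 3 and 4, and bars the mean ± SD (n = 4), on axes that differ between genes and do not start at 0. For Sqle, unirradiated mutant extracts lie from 10.25 to 10.36 and irradiated wild type extracts from 9.58 to 9.73, with the other groups between.

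Msmo1, a methylsterol oxidase acting after Cyp51, was lowered by irradiation. It read 11.11, 11.23, 11.11 and 11.15 in unirradiated wild type, 10.81, 11.11, 10.77 and 10.75 in irradiated wild type, 11.45, 11.42, 11.30 and 11.29 in unirradiated mutant and 11.12, 10.96, 11.05 and 10.78 in irradiated mutant cells. Irradiated mutant extracts were all below unirradiated ones, and in wild type 1 irradiated extract, at 11.11, reached the lowest unirradiated ones. Msmo1 fell by 0.34 (SE 0.06, limma adjusted p = 0.00156), while its array B probe set showed 0.06 (adjusted p = 0.835). The genotype difference was 0.16 (adjusted p = 0.106, and 0.0274 with the replicate block).

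Ebp and Dhcr7, the sterol isomerase and the reductase that yields cholesterol itself, rose in the mutant. Ebp read 9.26, 9.39, 9.25 and 9.37 in unirradiated wild type, 9.47, 9.37, 9.35 and 9.19 in irradiated wild type, 9.38, 9.64, 9.70 and 9.60 in unirradiated mutant and 9.72, 9.69, 9.80 and 9.63 in irradiated mutant cells. With irradiation every mutant extract was above every wild type one, and without it 1 mutant extract, at 9.38, lay among the wild type values. Ebp rose in the mutant by 0.31 (SE 0.06, adjusted p = 0.0018) and differed by 0.08 with irradiation (95% interval -0.04 to 0.20, adjusted p = 0.419).

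Dhcr7 read 7.92, 7.74, 7.42 and 7.15 in unirradiated wild type, 7.46, 7.63, 7.30 and 7.09 in irradiated wild type, 8.47, 8.37, 8.11 and 8.28 in unirradiated mutant and 8.10, 8.07, 7.86 and 7.59 in irradiated mutant cells. Unirradiated mutant extracts were above all others, and the irradiated genotypes overlapped by 1 mutant extract. Its rise in the mutant, by 0.64 (SE 0.12, adjusted p = 0.00187) or 1.56-fold, was the largest among the members. With irradiation it differed by -0.29 (adjusted p = 0.118), which was called with the replicate block (adjusted p = 0.00495).

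The other sterol enzymes passed in neither averaged comparison. Nsdhl, a dehydrogenase of sterol demethylation, differed by 0.03 with irradiation (95% interval -0.07 to 0.14) and 0.09 in the mutant (-0.02 to 0.19). The reductase Tm7sf2 was 0.37 higher in the mutant (adjusted p = 0.198), with 0.06 within replicates 1 and 2 and 0.68 within replicates 3 and 4. Hsd17b7, a ketosteroid reductase of the same steps, was also 0.37 higher (adjusted p = 0.205, and 0.0305 with the replicate block), and its array B probe set, with a higher mean but not the one representing the gene, rose by 0.41 (adjusted p = 0.00574). Sc5d, a sterol desaturase, differed by -0.19 with irradiation and 0.18 in the mutant, with adjusted p of 0.248 and 0.311, or 0.0116 and 0.0183 with the block. Its array B probe set rose in the mutant by 0.89 (adjusted p = 0.0164), and a further one on array A showed 0.02.

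**Figure D2:**
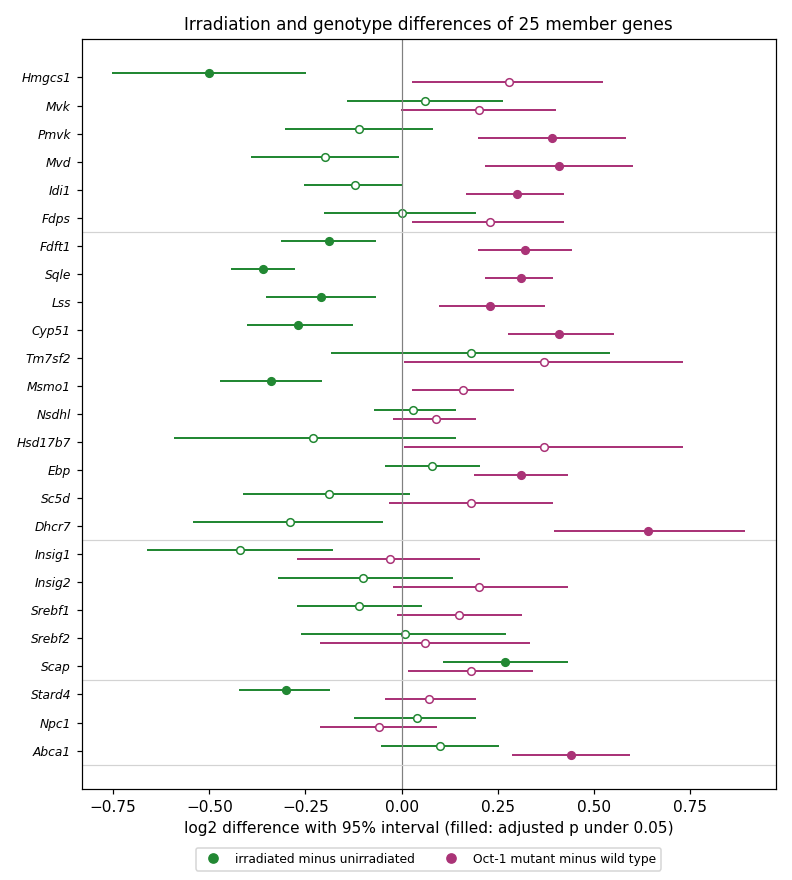
Log2 differences with 95% intervals of the 25 member genes, irradiated minus unirradiated (averaged over genotypes) and Oct-1 mutant minus wild type (averaged over irradiation states); filled points have an adjusted p under 0.05, and grey lines part the mevalonate, sterol, SREBP and transport genes. Filled points lie to the left for 7 genes with irradiation and to the right for 10 genes in the mutant.

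The SREBP control genes showed 1 call. Of 5 members, 1 was higher with irradiation and 0 were called for genotype, with medians of -0.10 and 0.15. All probe sets gave 4.5% higher with irradiation and 3.77% higher in the mutant. Scap, the escort of SREBP, read 10.08, 10.15, 10.17 and 10.34 in unirradiated wild type, 10.29, 10.58, 10.38 and 10.41 in irradiated wild type, 10.26, 10.19, 10.30 and 10.54 in unirradiated mutant and 10.55, 10.86, 10.75 and 10.40 in irradiated mutant cells. In each genotype 1 irradiated extract lay below the highest unirradiated one. It rose with irradiation by 0.27 (SE 0.07, limma adjusted p = 0.0235), by 0.40 within replicates 1 and 2 and by 0.14 within replicates 3 and 4 (adjusted p = 0.364). Without Oct-1 mutant unirradiated replicate 2 the adjusted p was 0.0512.

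Insig1, an SREBP2 target that retains SCAP, was measured on array B. It read 9.93, 9.79, 9.55 and 9.60 in unirradiated wild type, 9.66, 9.47, 9.15 and 8.99 in irradiated wild type, 9.92, 9.94, 9.53 and 9.44 in unirradiated mutant and 9.27, 9.49, 9.19 and 9.10 in irradiated mutant cells. Irradiated extracts lay lower with overlap in both genotypes. The irradiation difference was -0.42 (SE 0.11, adjusted p = 0.0716), and with the replicate block it was called (adjusted p = 0.000799). For genotype it was -0.03 (95% interval -0.27 to 0.20).

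The genes of the SREBPs themselves were not called. Srebf2 differed by 0.01 with irradiation (95% interval -0.26 to 0.27) and 0.06 in the mutant (-0.21 to 0.33). Srebf1 differed by -0.11 (adjusted p = 0.381) and 0.15 (adjusted p = 0.243). Insig2, a second INSIG protein, differed by -0.10 (adjusted p = 0.647) and by 0.20 (adjusted p = 0.27, and 0.00769 with the replicate block). These are transcript levels only, and cleavage of the SREBP proteins was not measured.

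Among the transport and LXR members, 3 of 5 were tested, with 1 lower with irradiation and 1 higher in the mutant (medians 0.04 and 0.07). For all probe sets these shares were 3.01% and 3.77%. Stard4, a carrier of sterols between membranes, read 8.95, 9.11, 9.09 and 9.02 in unirradiated wild type, 8.61, 8.65, 8.70 and 8.59 in irradiated wild type, 9.13, 9.09, 8.94 and 8.89 in unirradiated mutant and 8.90, 8.93, 8.70 and 8.71 in irradiated mutant cells. The wild type groups were apart and the mutant groups overlapped. Stard4 fell with irradiation by 0.30 (SE 0.05, adjusted p = 0.00145) and differed by 0.07 in the mutant (adjusted p = 0.486). Its other probe sets gave -0.35 (limma adjusted p = 0.349, and 0.000514 with the replicate block) and -0.07 (adjusted p = 0.804, and 0.7 with the block). The irradiation call was lost with probe sets averaged (adjusted p = 0.0876).

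Abca1, which exports cholesterol from the cell and is an LXR target, read 7.49, 7.33, 7.18 and 7.11 in unirradiated wild type, 7.79, 7.64, 7.46 and 7.48 in irradiated wild type, 7.85, 7.88, 8.02 and 7.95 in unirradiated mutant and 7.74, 7.93, 7.80 and 7.80 in irradiated mutant cells. Unirradiated wild type extracts were mostly the lowest, and unirradiated mutant extracts were above all wild type ones. It rose in the mutant by 0.44 (SE 0.07, adjusted p = 0.00058). Without irradiation the genotype difference was 0.65 (adjusted p = 0.000825) and with irradiation it was 0.23 (adjusted p = 0.281). Npc1, which releases cholesterol from lysosomes, differed by 0.04 with irradiation and -0.06 in the mutant, with adjusted p of 0.807 and 0.694.

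Within one genotype or one state, fewer members passed. Irradiation lowered 2 members in wild type cells, Sqle (-0.33, adjusted p = 0.0016) and Stard4 (-0.40, adjusted p = 0.00586), and raised 0, where 0.834% of all probe sets were called lower and 1.47% higher. In mutant cells it lowered Sqle (-0.39, adjusted p = 0.000317) and Msmo1 (-0.39, adjusted p = 0.0156) and raised 0, where 1.02% of probe sets were called lower and 1.65% higher. Counted by probe set, 5 of 45 were lower in wild type and 6 in mutant cells, and 0 were higher in either. Dimmer Hmgcs1 probe sets were called lower in both, with -0.59 (limma adjusted p = 0.000181) and -0.56 (adjusted p = 0.000288) on 1433443_a_at. So was the second of Cyp51 (-0.56, adjusted p = 0.00492, and -0.46, adjusted p = 0.0182). That of Idi1 was called in mutant cells only (-0.65, adjusted p = 0.0288). With the replicate block 6 members were lower and 1 higher in each genotype. That fit called 2.44% of all probe sets lower and 3.66% higher in wild type, and 2.95% lower and 4.21% higher in mutant cells.

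In unirradiated cells 6 members were higher and 0 lower in the mutant, beside 1.45% of probe sets higher and 0.702% lower. The 6 were Pmvk, Idi1, Sqle, Cyp51, Dhcr7 and Abca1, higher by 0.33 to 0.75. In irradiated cells 4 were higher in the mutant, namely Fdft1, Sqle, Cyp51 and Ebp, by 0.27 to 0.46. There 0 were lower, beside 1.41% of probe sets higher and 0.672% lower. Over the 45 member probe sets, 8 were higher without irradiation and 7 with it, and 0 were lower in either. The replicate block gave 10 members higher and 0 lower without irradiation, beside 3.64% and 2.78% of all probe sets in that fit. With irradiation it gave 8 higher and 0 lower, beside 3.56% and 2.47%. Without wild type unirradiated replicate 4 the count of 6 became 2, and it was 3 without any 1 of 4 other extracts: replicate 2 or 3 of either unirradiated group.

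The difference of the irradiation effects between genotypes was called for 0 members and 0% of all probe sets. At an unadjusted p under 0.05, 394 probe sets, 1.45%, passed, where about 1 in 20 would pass if no response differed. The share fell below that, so 0 calls do not show equal responses. The interval for Sqle, mutant minus wild type, was -0.23 to 0.10, and those of Cyp51, Fdft1 and Lss were -0.17 to 0.37, -0.22 to 0.27 and -0.33 to 0.22. Abca1 had the largest such difference among the members, -0.42 (95% interval -0.72 to -0.13), from an irradiation difference of 0.31 in wild type (adjusted p = 0.101) and -0.11 in mutant cells (adjusted p = 0.653). These intervals still admit unequal responses to irradiation.

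The opposed differences can be read together by setting irradiated mutant cells against unirradiated wild type cells, a comparison that shares its samples with the others. On the probe sets representing the genes, Ebp, Scap and Abca1 were higher, Stard4 was lower, and 21 members were not called. Counted by probe set, 4 of 45 were higher and 4 lower, beside 5.69% of all probe sets higher and 4% lower. Other probe sets were called lower for Hmgcs1 (-0.35, limma adjusted p = 0.00505, and -0.52, adjusted p = 0.0314) and Idi1 (-0.54, adjusted p = 0.0309). The array B probe set of Hsd17b7 was called higher (0.50, adjusted p = 0.0122). The median member difference was 0.13, against 0.03 over all genes. The Sqle difference was -0.06 (95% interval -0.17 to 0.06), that of Lss 0.02 (-0.17 to 0.22), that of Fdft1 0.13 (-0.05 to 0.30) and that of Cyp51 0.14 (-0.05 to 0.34). None of the 4 was called with the replicate block either, with adjusted p of 0.475 for Sqle, 0.858 for Lss, 0.225 for Fdft1 and 0.101 for Cyp51. With extracts matched by replicate number, the irradiated mutant was higher in 4 of 4 pairs for Fdft1 and for Cyp51. The blocked interval of Cyp51 was 0.01 to 0.28. Its second probe set showed no such excess, at -0.08 (95% interval -0.30 to 0.15, and limma adjusted p = 0.491 with the replicate block). Sqle was lower in 4 of 4 pairs. The groups overlapped for Fdft1, Cyp51 and Sqle alike. Correlations between extracts did not single out same-numbered pairs, so these pair counts can depend on the matching chosen.

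Scap was 0.45 higher (limma adjusted p = 0.00729), Ebp 0.39 (adjusted p = 0.00321) and Abca1 0.54 (adjusted p = 0.00131) in this comparison. For these genes the 2 groups did not overlap. Stard4 fell by 0.23 (adjusted p = 0.049), a call lost in 12 of the 16 fits that dropped 1 extract (adjusted p up to 0.137). With the replicate block 7 members were higher and 2 lower, beside 10.2% and 8.12% of all probe sets in that fit. Insig1 was among the latter (-0.45, adjusted p = 0.00482, against 0.177 without the block).

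**Figure D3:**
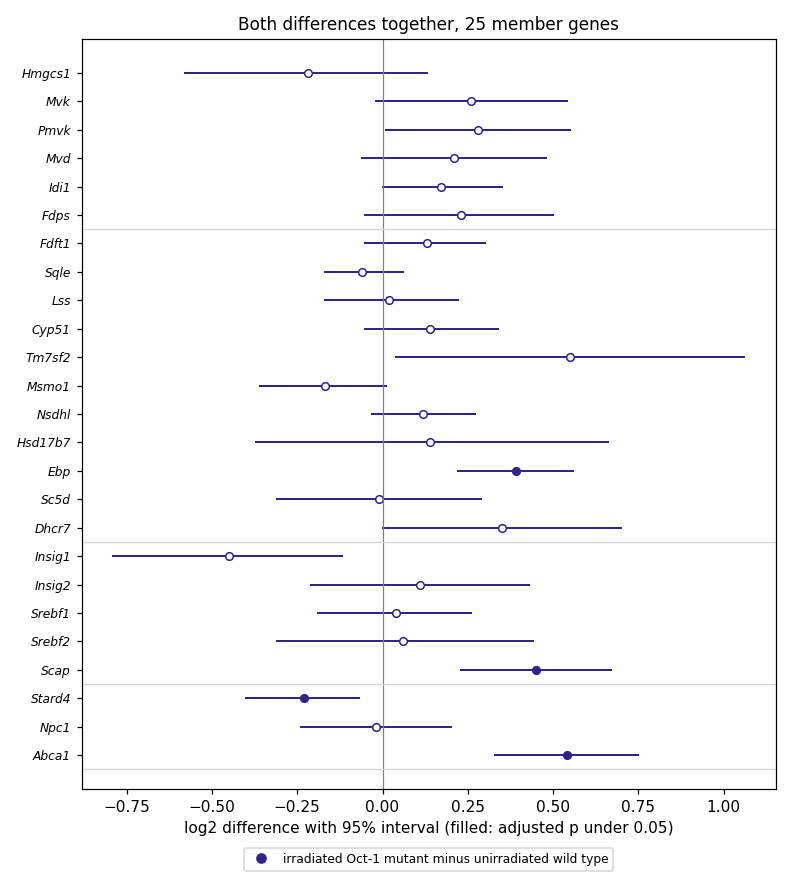
Log2 difference with 95% interval between irradiated Oct-1 mutant and unirradiated wild type cells for the 25 member genes; filled points have an adjusted p under 0.05. Ebp, Scap and Abca1 lie to the right and Stard4 to the left, and the intervals of Sqle, Lss, Fdft1 and Cyp51 include 0.

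The same member values on array A were also laid out extract by extract. The median deviation of the 24 genes from their own means ran from -0.28 to -0.13 in irradiated wild type, from -0.11 to -0.01 in unirradiated wild type, from -0.03 to 0.13 in irradiated mutant and from 0.12 to 0.28 in unirradiated mutant extracts. The irradiated wild type extracts were thus the 4 lowest, and the unirradiated mutant extracts stood at the top, overlapping the irradiated mutant ones at their edge. In the 4 unirradiated mutant extracts 18 to 21 of the 24 genes were above their own mean, and in the 4 irradiated wild type extracts 3 to 7 were. These counts restate the values behind the averaged comparisons and were not made over all genes.

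**Figure D4:**
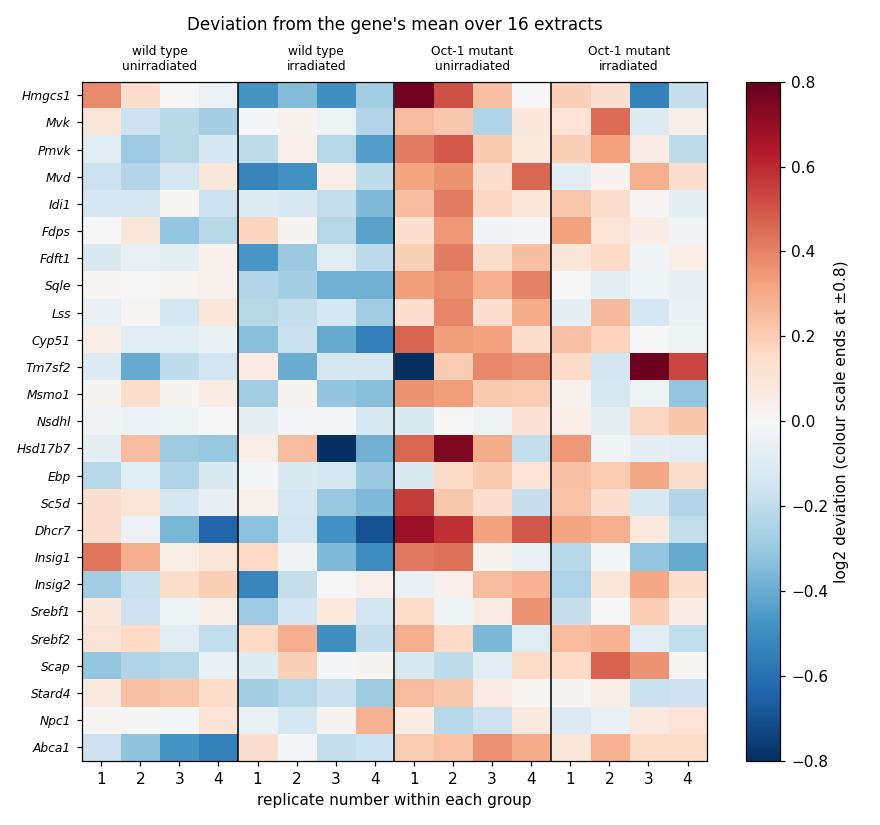
Log2 deviation of each member gene from its own mean over the 16 extracts, with the groups in blocks of 4 replicates and the colour scale ending at ±0.8. Unirradiated mutant extracts are mostly above the mean (18 to 21 of the 24 array A genes) and irradiated wild type extracts mostly below it (3 to 7 above). The same counts were not made over all genes.

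Neighbouring pathway genes were counted from lists that hold no member. Beside them, 3.01% of all probe sets were called lower and 4.5% higher with irradiation. In the mutant these shares were 2.48% and 3.77%. Of 12 tested genes listed for SREBP processing and as possible further SREBP2 targets, 1 fell with irradiation, the retinal reductase gene Rdh11 (-0.55, limma adjusted p = 0.0115). For genotype 0 were called, and the medians were 0.02 and 0.03. Control by SREBP2 was not checked for the listed genes, such as Fnta, Fntb and Coq2. Of 15 fatty acid and lipid genes controlled by SREBP1, Scd2, a fatty acid desaturase (-0.20, adjusted p = 0.0163), and Elovl6, an elongase (-0.33, adjusted p = 0.0021), fell with irradiation. Lpin1, a phosphatidate phosphatase, rose by 1.46 (adjusted p = 1.92e-05). In the mutant Acss2, which makes acetyl-CoA from acetate, rose by 0.38 (adjusted p = 0.00659) and Mid1ip1, a regulator of acetyl-CoA carboxylase, fell by 0.35 (adjusted p = 0.0118). Medians of this list were -0.09 and 0.11.

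Among 7 tested LXR partners and further LXR targets, Mylip, whose product marks the LDL receptor for degradation, had the opposed pattern of the 4 sterol genes. It fell with irradiation by 0.57 (SE 0.09, adjusted p = 0.000558) and rose in the mutant by 0.48 (SE 0.09, adjusted p = 0.00236). The phospholipid transfer protein gene Pltp rose with irradiation by 0.68 (adjusted p = 9.26e-05). In the mutant Rxra, the partner receptor of LXR, rose by 0.21 (adjusted p = 0.0375) and Smpdl3a, a phosphodiesterase gene, by 0.80 (adjusted p = 3.1e-06). List medians were 0.04 for irradiation and 0.20 for genotype.

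Of 14 tested genes for uptake, transport and storage, 3 rose and 0 fell with irradiation: the lipoprotein receptor Scarb1 (0.32, adjusted p = 0.000304), the sterol carrier Scp2 (0.24, adjusted p = 0.0081) and the lysosomal Npc2 (0.16, adjusted p = 0.0291). In the mutant 2 rose and 0 fell, the lysosomal lipase Lipa (0.30, adjusted p = 0.00726) and Ch25h, which makes an oxysterol (0.78, adjusted p = 0.0264). The list medians were 0.08 and 0.12, and no gene of this list was called in both comparisons.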

How the data were processed

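The authors deposited 1 log2 value per probe set and array; the sources used here do not say how these were summarised, and the log base was inferred from a range of 0.265 to 15.75. Array medians spanned 6.16 to 6.28 (A) and 3.67 to 3.78 (B), so nothing was rescaled. Platform annotation gave 1 gene to 20393 of 22690 probe sets on A and 14674 of 22575 on B, several to 691 and 245 and none to 1606 and 7656; symbols were updated by gene identifier through RefSeq. Tests covered probe sets whose mean reached the 40th percentile of their array: 13576 on A and 13507 on B. Each array type was fitted with limma 3.58.1 (R 4.3.3; 4 group means, moderated two-sided tests with an intensity trend, Benjamini-Hochberg adjustment within array and comparison). A gene is represented by its brightest passing probe set, on A where possible; all members are named. The code was tested on simulated data.

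The members and lists were chosen with earlier results of these data known. Replicate numbers, which come from the labels, were used as a block. Deviations from group means of same-numbered extracts correlated at 0.32 to 0.72 (A) and 0.24 to 0.60 (B). Those of differently numbered extracts within replicates 1 and 2, or 3 and 4, were as high (medians 0.56 and 0.40). Between replicates 1 and 2 and replicates 3 and 4 the medians were -0.58 (A) and -0.43 (B). Deviations from a group mean cancel within the group, so these negative values follow largely from the positive ones. The correlations thus set replicates 1 and 2 apart from 3 and 4 but do not single out same-numbered pairs. One replicate number absent on array A (replicate 1 of the unirradiated Oct-1 mutant) came from that extract's array B label. A total of 26 alternatives were run, 16 of them leaving out 1 extract.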

Additional observations from a re-analysis of the deposited data

Results flagged for a closer look

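In 3 of 100 groups of 4 member values, 1 extract stood far from the other three by Dixon's criterion, where chance gives about 1 in 20. Tm7sf2 read 5.70 in Oct-1 mutant unirradiated replicate 1, against 6.71 to 6.89 in the others. Hsd17b7 read 7.28 in Oct-1 mutant irradiated replicate 1, against 6.85 to 6.90. Npc1 read 6.51 in wild type unirradiated replicate 4, against 6.39 to 6.41. None of these 3 genes was called in either averaged comparison.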

How the results depend on the processing

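Across the 36 member calls and 26 alternatives, 0 of 936 refits turned a call to the other direction, and 24 calls held under every left-out extract, among them 5 of 8 for irradiation and 9 of 10 for genotype, averaged. Counts of called members below cover both directions. With the replicate block or a block for replicates 1 and 2 against 3 and 4, genotype averaged gave 16 and 17 (10 in the main fit), irradiation in wild type 7 and 7 (2), irradiation in the mutant 7 and 7 (2), genotype without irradiation 10 and 10 (6), genotype with irradiation 8 and 8 (4), and irradiated mutant against unirradiated wild type 9 and 9 (4). Within replicates 3 and 4 alone, irradiation averaged gave 5 (8) and irradiation in the mutant 1; within replicates 1 and 2, irradiation in wild type gave 1. With probe sets averaged, irradiation in the mutant gave 5; with no filter, genotype without irradiation gave 3. Leaving out 1 extract gave 5 to 8 for irradiation averaged (5 without Oct-1 mutant unirradiated replicate 2), 9 to 11 for genotype averaged, 2 to 4 for irradiation in wild type (4 without wild type irradiated replicate 2), 1 to 4 for irradiation in the mutant (1 and 4 without Oct-1 mutant unirradiated replicates 1 and 4), 2 to 6 for genotype without irradiation, 3 to 5 for genotype with irradiation, 3 to 5 for irradiated mutant against unirradiated wild type, and 0 for the difference of irradiation effects. The cause was not tested. Only 4 arrays a group limit the precision, and the values carry no detection calls.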

Other observations

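Several members differed between replicates 1 and 2 and replicates 3 and 4 in the same direction in all 4 groups. Averaged over the groups, replicates 3 and 4 were lower by 0.50 for Hsd17b7 on the log2 scale, by 0.43 for Srebf2, by 0.37 for Dhcr7, by 0.36 for Insig1, by 0.32 for Sc5d and by 0.30 for Fdps. They were 0.34 higher for Insig2 and 0.36 higher for Tm7sf2. Sqle differed by -0.04 and Fdft1 by 0.02. No cause was tested.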
